A study of Arabidopsis thaliana with 9 samples.

Results

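Seedlings of the Arabidopsis line OE2, which by its labels overexpresses CsGSTF1, were compared with seedlings of the mutant tt19-8, a knock-out of TT19. Each group had 3 RNA-seq libraries (OE2 replicates 1 to 3, tt19-8 replicates 1 to 3), all from 9-day-old seedlings on 1/2 MS medium with 2% sucrose. The series title places CsGSTF1, a tea glutathione S-transferase gene, in the tt19-8 background and asks whether it restores anthocyanin there. The labels give no promoter for the transgene and do not say whether OE2 is 1 insertion line, whether seedlings were pooled, or whether the libraries of a group came from separate cultures. The p-values therefore measure only the spread between these libraries. CsGSTF1 itself and pigment were not analysed here. Of 33602 genes in each library, the 17915 with at least 1 FPKM (sequenced fragments scaled by gene length and by library size) in at least 3 of the 6 libraries were tested, and the other 15687 were not. Another group of 3 libraries, the line OE1, carries the same label as OE2 and is used below only beside OE2.

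Anthocyanins are red and purple flavonoid pigments made from phenylalanine. Early enzymes such as chalcone synthase build the flavonoid skeleton, late enzymes such as DFR and LDOX turn it into anthocyanidin, and glycosyl and acyl transferases decorate it. A complex of MYB, bHLH and WD40 proteins switches on the late genes, and TT19, a phi-class glutathione S-transferase, acts after synthesis and is needed for the pigment to reach the vacuole.

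TT19, with the identifier AT5G17220, which TAIR10.1 places on the forward strand of chromosome 5 from 5658416 to 5659661, lay below 1 FPKM in every library. It measured 0.864, 0.674 and 0.876 FPKM in the OE2 libraries and 0.113, 0.0399 and 0 FPKM in the tt19-8 libraries, so the groups did not overlap. With OE2 below 1 FPKM the gene did not pass the filter and has no test.

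The OE2 values were tied to those of OE1. In the 3 same-numbered pairs of libraries, the lowest ratio of an OE2 value to its OE1 value over all genes above 0 in OE1 was 0.600225 to 0.600721, and no gene was at 0 in OE2 alone. In the other direction, 1709, 1635 and 1719 genes above 0 in OE2 replicates 1, 2 and 3 were at 0 in the same-numbered OE1 library. In the other 69 ordered pairs of libraries of the series, the lowest ratio was 0, and 8.61% to 31.6% of genes lay below 0.6. What ties the libraries was not tested. Whether OE2 was measured independently of OE1 cannot be told apart in these files, and no OE2 value lies further below its OE1 partner than this floor of 0.6. Every OE2 level, change and p-value below carries that limit, and OE1 values stand beside those of the leading genes. Replicate 3 of tt19-8 also stood apart. The SD over genes of its log2 ratio to tt19-8 replicates 1 and 2 was 0.519 and 0.528, against 0.346 between those replicates, and it was 0.472 to 0.515 to the OE2 libraries. To OE1 replicates 1, 2 and 3 the SD was 0.400, 0.385 and 0.406, lower than to its own group. Summed FPKM was 867529 to 912535 in OE2 and 1056690 to 1096080 in tt19-8. Genes at 0 numbered 9687 to 9988 in the OE2 libraries and 11082 to 11368 in the tt19-8 libraries. Low values above 0 in OE2, and rises from near 0, are to be read beside these counts.

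**Figure D1:**
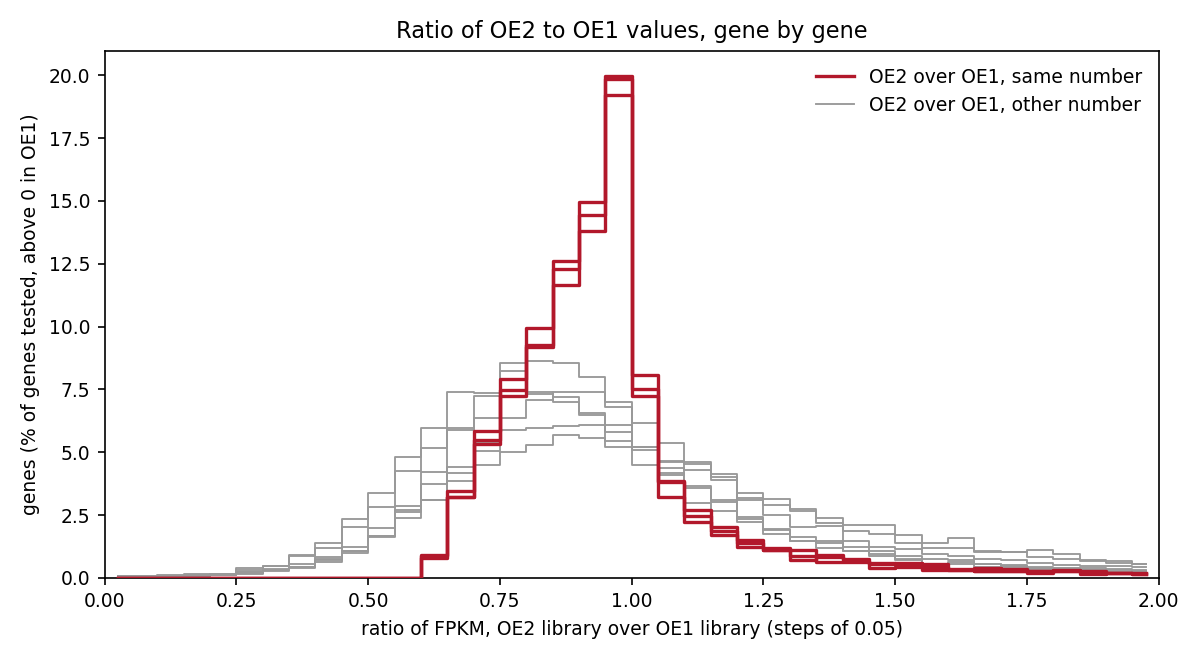
Distribution of the ratio of FPKM in an OE2 library to FPKM in an OE1 library, over genes tested and above 0 in OE1; the x axis is the ratio in steps of 0.05 and the y axis the percentage of genes. The 3 same-numbered pairs (red) begin at 0.6 and reach 19% to 20% of genes in the step just below 1, while the 6 pairs of unlike number (grey) run down to 0 with no edge.

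Limma called 2636 genes, 14.7% of those tested, at a Benjamini-Hochberg adjusted p under 0.05. Of these 766 (4.28% of genes tested) were higher in OE2 and 1870 (10.4%) were lower. The counts of called members in the gene lists below are to be read beside these shares. After median-ratio scaling of the libraries the split was 1052 higher and 636 lower, and after scaling each library to the same sum it was 1287 higher and 333 lower. The median log2 change of all genes tested was -0.19, so a log2 change given below stands 0.19 further from that median if it is a rise and nearer to it if it is a fall. The groups did not overlap for 6704 genes (37.4%), among them 2609 of the 2636 called. Without tt19-8 replicate 3 the count was 6095 genes (1568 higher and 4527 lower), and without any 1 of the other 5 libraries it was 239 to 929. Of the genes higher in OE2, 190 of 766 were under 1 FPKM in every tt19-8 library and passed the filter through OE2 alone, and 28 of the 1870 lower genes passed through tt19-8 alone. Such a gene had to differ to be tested, and the 3 fits that leave out an OE2 library did not test the 190. Among 261 genes (212 higher and 49 lower) that kept their call wherever they were tested, 102 higher and 46 lower genes were tested in all 14 alternative fits.

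In the fit as reported, rises were fewer than falls but more often large. Of the genes called, 34 were at least 4-fold higher in OE2 and 2 were at least 4-fold lower, on the scale of FPKM + 1. At a log2 change of 1 or more, 381 genes were higher (2.13%) and 336 lower (1.88%). The genes higher in OE2 had a median level of 3.84 FPKM over the 6 libraries, against 28.4 FPKM for those lower in OE2 and 11.6 FPKM for all genes tested.

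Transcript length ran along with the direction. The annotated transcripts of the genes higher in OE2 had a median of 1124 bases and 2 exons, those of the genes lower in OE2 2226 bases and 8 exons, and those of all genes tested 1747 bases and 5 exons. Among the 2128 genes of at least 500 and under 1000 bases, 13.02% were higher in OE2 and 2.96% lower, while among the 2130 genes of 3000 bases or more 0.563% were higher and 23.7% lower. By library, the median log2 deviation from the mean of all 6 libraries was lower for long than for short genes in the OE2 libraries, and higher in tt19-8 replicates 1 and 2. In OE2 replicate 1 it was 0.19 for genes of at least 500 and under 1000 bases and -0.26 at 3000 bases or more. In tt19-8 replicate 2 the same values were -0.08 and 0.40, and in tt19-8 replicate 3 they were 0.02 and 0.02. The part of length in the results below was not tested.

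**Figure D2:**
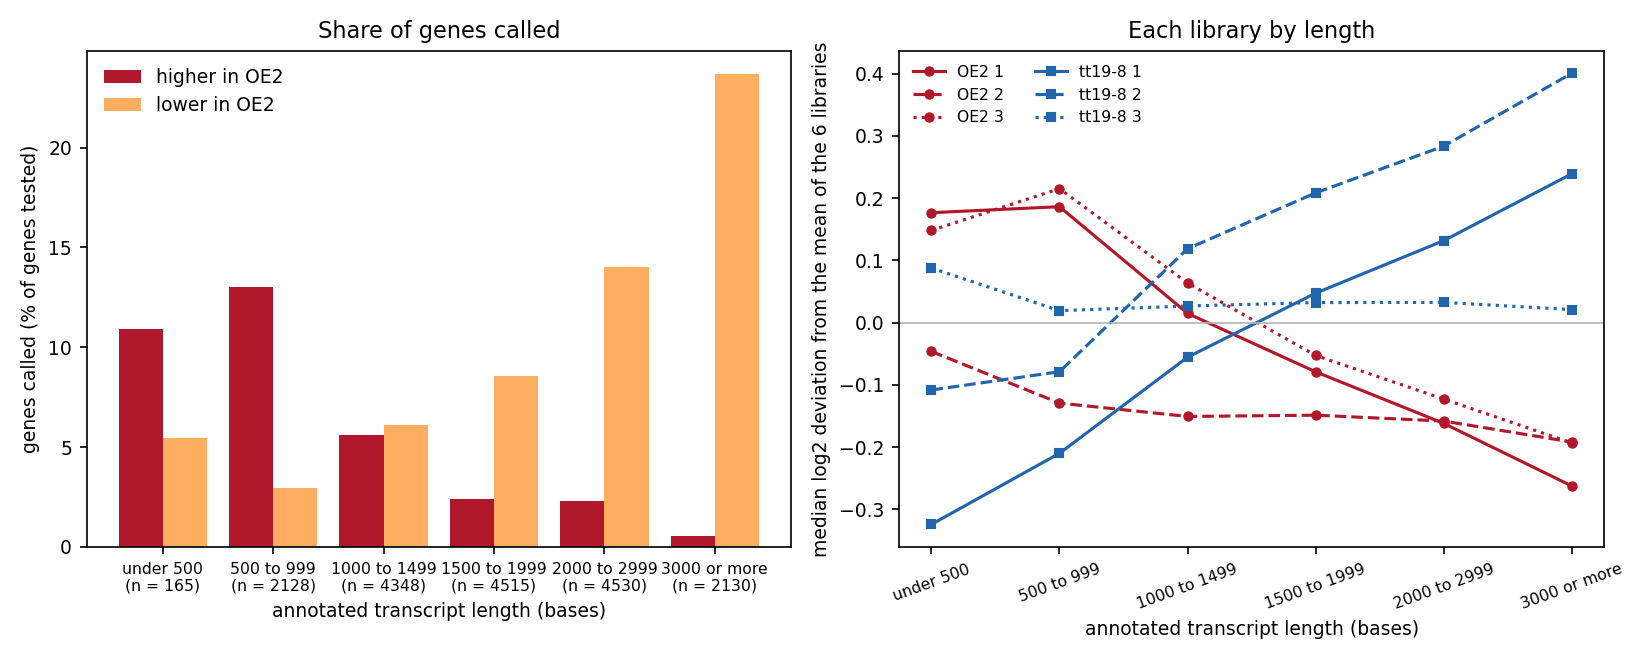
Left, percentage of genes tested that were called higher (red) or lower (orange) in OE2, by annotated transcript length in bases, with the number of genes under each bin. Right, median log2 deviation of each library from the mean of the 6 libraries in the same bins. The share of rises is highest from 500 to under 1000 bases (13.02%) and the share of falls at 3000 bases or more (23.7%), and the line of tt19-8 replicate 3 stays between 0.02 and 0.09.

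Among the late anthocyanin genes, 2 of 10 tested rose in OE2 and none fell. LDOX (AT4G22880), which makes anthocyanidins, measured 47.8, 57.3 and 51.6 FPKM in OE2 and 20, 27.0 and 22.8 FPKM in tt19-8. The lowest OE2 library was well above the highest tt19-8 library, and the log2 change was 1.14 ± 0.18 (limma, adjusted p = 0.00512). OE1 measured 26.2, 35.8 and 42.8 FPKM for LDOX. UGT75C1, an anthocyanin glucosyltransferase, measured 64.8, 82.6 and 81.1 FPKM in OE2 and 54.5, 44.3 and 44.7 FPKM in tt19-8, with a log2 change of 0.66 ± 0.18 (adjusted p = 0.037). LDOX kept its call in all 14 alternative fits, which differ in scaling, filter, pseudocount, model or the library left out (highest adjusted p 0.0343). The call for UGT75C1 ended when any 1 library other than tt19-8 replicate 3 was left out (adjusted p 0.0728 to 0.13). DFR, the enzyme before LDOX, measured 454, 433 and 537 FPKM in OE2 and 354, 289 and 279 FPKM in tt19-8. Its groups did not overlap, but its log2 change of 0.63 ± 0.20 missed the threshold (adjusted p = 0.0531). Over the 14 alternative fits the adjusted p of DFR was 0.0181 to 0.184, and after median-ratio scaling it was 0.0293 with a log2 change of 0.82.

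The remaining late genes code for enzymes that decorate anthocyanins or help to do so, and none passed. The glycosyltransferases UGT79B1 and UGT78D2 had log2 changes of 0.40 ± 0.23 and 0.36 ± 0.22. The acyltransferases 3AT1, 3AT2 and 5MAT had values of 0.08, -0.13 and 0.10, and the acyltransferase-like SCPL10 had -0.11. BGLU10, a glucosyltransferase of anthocyanin, measured 37.9, 50.5 and 38.3 FPKM in OE2 and 69.0, 82.7 and 44.8 FPKM in tt19-8, with overlapping libraries (log2 change -0.59 ± 0.24, adjusted p = 0.104). Over the list the median log2 change was 0.23.

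None of the 5 early flavonoid genes tested was called by limma, and none had an unadjusted p under 0.05. CHS, the chalcone synthase that opens the pathway, measured 1070, 965 and 1112 FPKM in OE2. In tt19-8 it spread over 2652, 1738 and 867 FPKM, a range that held all 3 OE2 libraries. The chalcone isomerase genes CHI and CHIL had log2 changes of -0.21 ± 0.23 and 0.29 ± 0.26. F3primeH, which adds a hydroxyl to the B ring, and FLS1, the flavonol synthase, both had 0.12. F3H was listed at or below 0.057 FPKM in all 6 libraries and had no test. Why its listed value was so low beside that of CHS was not tested.

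Of 17 flavonoid regulators tested, 4 were higher and 1 lower (list median 0.27). PAP2 (MYB90) and PAP1 (MYB75) are the MYB activators of the late pathway. PAP2 measured 6.47, 7.33 and 7.34 FPKM in OE2 and 1.36, 1.44 and 0.299 FPKM in tt19-8 (log2 change 2.04 ± 0.25, limma, adjusted p = 0.00147). PAP1 measured 12.0, 9.99 and 17.5 FPKM in OE2 and 2.76, 2.66 and 3.84 FPKM in tt19-8 (log2 change 1.77 ± 0.23, adjusted p = 0.00177). Neither gene's groups overlapped, and both calls held in all 14 alternative fits. In OE1, PAP2 measured 0.676, 1.36 and 2.37 FPKM and PAP1 4.72, 3.11 and 10.8 FPKM. MYB111 and MYB12, activators of flavonol synthesis, rose by 1.11 ± 0.21 and 0.79 ± 0.21 (adjusted p = 0.0124 and 0.0312). LBD39, a nitrate-responsive repressor of PAP1 and PAP2, measured 17.9, 19.0 and 16.3 FPKM in OE2 and 41.4, 50.5 and 27.7 FPKM in tt19-8 (log2 change -1.09 ± 0.22, adjusted p = 0.0142).

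The partners of these MYB proteins did not pass. The bHLH genes TT8, GL3 and EGL3 had log2 changes of 0.27, 0.34 and -0.47, and the WD40 gene TTG1 had 0.25. HY5, the light-response bZIP factor, had 0.37 ± 0.29, and the repressor MYBL2 had -0.09. LBD37 and LBD38, relatives of LBD39, had -0.48 and -0.29, and PIF3 had -0.56. CPC, an R3-MYB repressor, measured 2.16, 1.55 and 1.96 FPKM in OE2 and 1.03, 1.02 and 0.599 FPKM in tt19-8 (log2 change 0.62 ± 0.19, adjusted p = 0.0526). MYB11 and SPL9 had 0.31 and 0.09. The calls for MYB111, MYB12 and LBD39 ended without OE2 replicate 1 or 3 or tt19-8 replicate 2, and those for MYB12 and LBD39 also without tt19-8 replicate 1, with adjusted p up to 0.0605, 0.125 and 0.0666.

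Upstream of the flavonoid genes, 1 of 9 general phenylpropanoid genes rose and 3 fell (list median -0.55). C4H, the cinnamate hydroxylase, measured 80.7, 71.0 and 102 FPKM in OE2 and 47.5, 53.2 and 54.0 FPKM in tt19-8 (log2 change 0.69 ± 0.19, adjusted p = 0.0351). PAL3, a phenylalanine ammonia-lyase, and the ligase genes 4CL1 and 4CL3 fell, by log2 values of -0.81, -0.81 and -0.69 (adjusted p = 0.0191, 0.0239 and 0.0457). The call for C4H ended without OE2 replicate 1 or 3 or tt19-8 replicate 1 or 2 (adjusted p 0.104 to 0.1437). Of 10 lignin genes 1 fell, near the 10.4% of all genes tested that were lower. It was HCT, with -0.80 ± 0.20 (adjusted p = 0.0278), and its call ended without any 1 library other than tt19-8 replicate 3 (adjusted p 0.0516 to 0.1356). After median-ratio scaling 1 phenylpropanoid gene and no lignin gene was lower. Leaving out any 1 library other than tt19-8 replicate 3 left 0 or 1 phenylpropanoid gene lower.

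**Figure D3:**
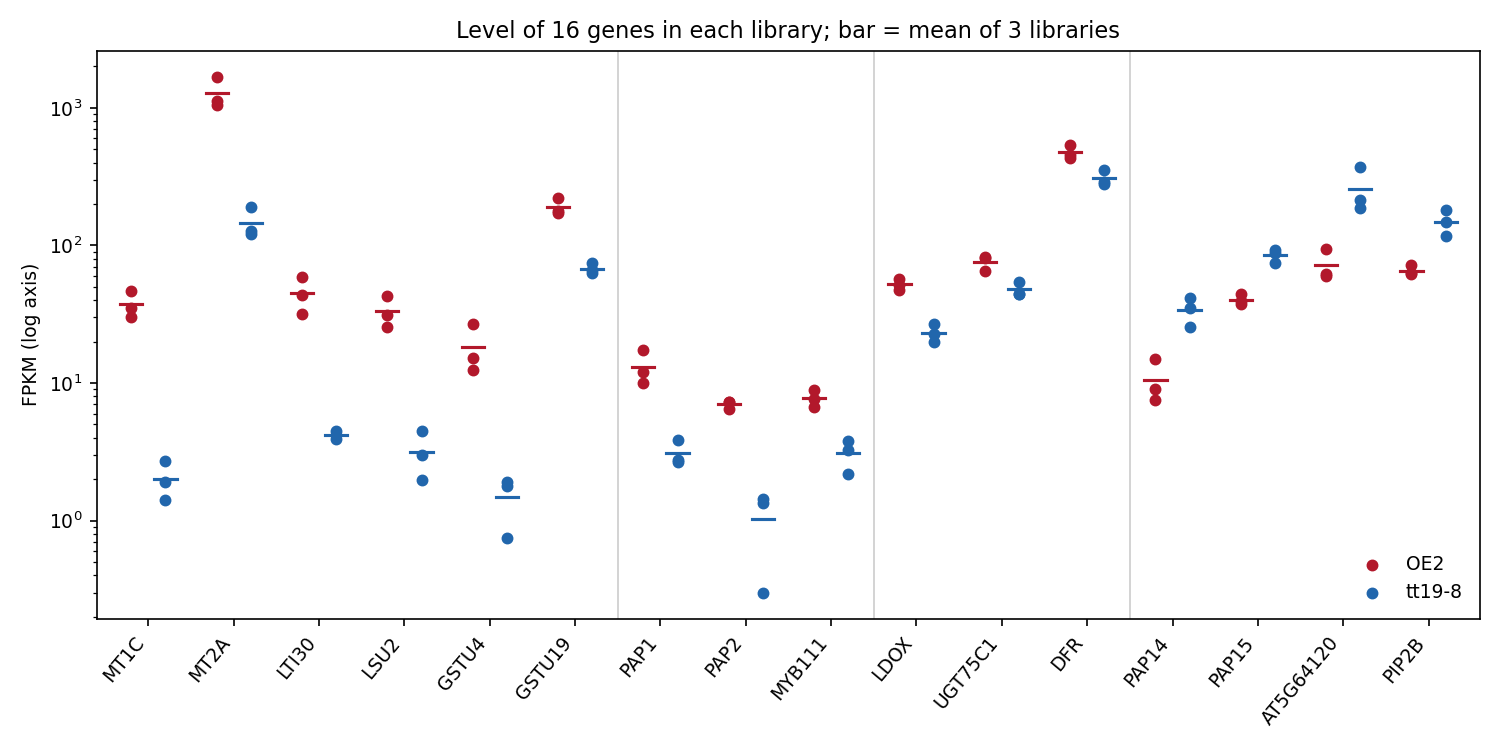
FPKM (log axis) of 16 genes in each library, OE2 in red on the left and tt19-8 in blue on the right of each pair, with a bar at the mean of 3 libraries. For 15 genes every OE2 library lies on one side of every tt19-8 library with limma's adjusted p under 0.05, and DFR, at 433 to 537 FPKM in OE2 and 279 to 354 FPKM in tt19-8, is the one that missed that threshold.

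Glutathione S-transferases conjugate glutathione to reactive or foreign compounds. In the phi class, that of TT19, 1 of 9 tested members rose. GSTF5 measured 8.34, 9.10 and 8.304 FPKM in OE2 and 2.56, 3.33 and 4.06 FPKM in tt19-8 (log2 change 1.16 ± 0.20, limma, adjusted p = 0.00748). The other tested phi members lay between -0.71 (GSTF7) and 0.11 (GSTF10). In the tau class, the large plant class of stress-inducible enzymes, 4 of 22 rose and none fell, with a list median of 0.23. GSTU4 measured 15.3, 12.4 and 26.9 FPKM in OE2 and 1.79, 1.90 and 0.754 FPKM in tt19-8 (log2 change 2.92 ± 0.29, adjusted p = 0.000406). GSTU19, the most abundant of the 4, measured 171, 178 and 220 FPKM in OE2 and 66.6, 74.1 and 63.0 FPKM in tt19-8 (1.46 ± 0.18, adjusted p = 0.00153). GSTU7 rose by 1.86 ± 0.21 (adjusted p = 0.000717), and GSTU5 by 1.53 ± 0.28 (adjusted p = 0.01). In OE1 these genes were close to tt19-8, with 1.38, 1.17 and 2.66 FPKM for GSTU4 and 70.1, 61.4 and 88.8 FPKM for GSTU19.

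The tau members did not move as a block. GSTU4, GSTU5 and GSTU7 lie in a run of tau genes on chromosome 2, where GSTU6, GSTU2 and GSTU1 had log2 changes of 0.50, -0.13 and 0.54 and did not pass. GSTU20, the neighbour of GSTU19 on chromosome 1, had 0.20, and GSTU24 and GSTU25, a pair elsewhere on that chromosome, had 0.04 and -0.12. Tandem copies can share reads, and how the counting treated such reads is not given in the sources used here. The calls of GSTU4, GSTU7 and GSTU19 held in all 14 alternative fits, and GSTU5 lost its call without OE2 replicate 3 (adjusted p = 0.052). The list of 14 tested detoxification genes held GSTU4, GSTU7 and GSTU19 as its only higher members and had 1 lower member, the ABC transporter gene ABCG40, with -1.11 ± 0.20 (adjusted p = 0.00914). ABCG40 lost its call without OE2 replicate 1 or 3 (adjusted p = 0.0518 and 0.0528).

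The promoters of the tau genes that rose are shown for the letters TGACG on either strand, the core of the as-1 element found in front of stress-inducible glutathione S-transferase genes. The window is the 250 bases before the annotated gene start, in RefSeq's TAIR10.1, read in the direction of the gene, with each match in capitals. GSTU7 (chr2:12618900-12619149, reverse strand) held 3 copies and GSTU4 (chr2:12627892-12628141, reverse strand) none.
GSTU7: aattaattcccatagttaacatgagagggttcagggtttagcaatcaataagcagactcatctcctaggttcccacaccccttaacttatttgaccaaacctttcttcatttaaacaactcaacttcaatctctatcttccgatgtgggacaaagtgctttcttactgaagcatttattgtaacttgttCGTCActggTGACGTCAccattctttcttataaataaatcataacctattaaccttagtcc
GSTU4: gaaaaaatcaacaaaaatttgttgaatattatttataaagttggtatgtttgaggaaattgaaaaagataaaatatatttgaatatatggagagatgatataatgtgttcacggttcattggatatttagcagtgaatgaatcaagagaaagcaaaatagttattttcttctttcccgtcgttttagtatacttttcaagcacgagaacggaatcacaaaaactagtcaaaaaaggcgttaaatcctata
GSTU5 held 1 copy in its window and GSTU19 none. The letters were found in 10 of the 22 tau windows and in 19.5% of the 17804 windows of all tested genes with a position. They stood in 22.7% of windows of genes higher in OE2 and 18.9% of those lower in OE2.

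Metallothioneins are small cysteine-rich proteins that bind copper and zinc, and 2 of the 4 tested genes rose, with the 2 highest log2 changes in any of the 48 lists. MT1C (AT1G07610) measured 30.0, 35.3 and 46.4 FPKM in OE2 and 1.42, 1.93 and 2.71 FPKM in tt19-8 (log2 change 3.66 ± 0.23, limma, adjusted p = 2.19e-05). MT2A (AT3G09390) measured 1051, 1125 and 1685 FPKM in OE2 and 128, 121 and 190 FPKM in tt19-8 (log2 change 3.12 ± 0.25, adjusted p = 0.000163). Both stood apart in every library, and both held in all 14 alternative fits. In OE1, MT1C measured 2.66, 1.45 and 2.85 FPKM and MT2A 256, 146 and 244 FPKM. MT2B measured 271, 205 and 299 FPKM in OE2 and 254, 211 and 141 FPKM in tt19-8, with overlapping libraries and a log2 change of 0.38 ± 0.25. MT3, with 400, 217 and 342 FPKM in OE2 and 211, 191 and 250 FPKM in tt19-8, also overlapped (0.52 ± 0.24). MT1A, a near copy of MT1C, was listed at 0 in all 6 libraries, and how reads were shared between them is not given in the sources used here. The median transcript of the list has 577 bases.

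Other metal genes went both ways. Of 10 copper and zinc genes tested, COPT2, a copper importer, and NAS2, which makes the metal chelator nicotianamine, rose by 0.76 ± 0.17 and 1.03 ± 0.30 (adjusted p = 0.0199 and 0.0451). CCS, the chaperone that loads copper into superoxide dismutase, had -1.01 ± 0.19 (adjusted p = 0.0124). CSD1 and CSD2, the copper/zinc superoxide dismutases, had -0.43 and -0.08 and did not pass. The zinc transporter genes ZIP2 and ZIP7 were called lower, 2 of 9 in their family, ZIP2 with -0.86 (adjusted p = 0.0275). ZIP7 was under 1 FPKM in every OE2 library and passed the filter through tt19-8 alone, so no test is given for it. Without OE2 replicate 1 or 3 none of these calls remained.

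Genes of the response to low sulfur split, with 3 of 15 higher and 3 lower. LSU2, of a family of small proteins induced when sulfate is short, measured 25.3, 31.5 and 43.2 FPKM in OE2 and 2.98, 1.99 and 4.47 FPKM in tt19-8 (log2 change 3.06 ± 0.26, limma adjusted p = 0.000163). Its level in OE1 was 3.89, 2.62 and 5.52 FPKM. APR2, which reduces activated sulfate, measured 39.4, 34.4 and 40.1 FPKM in OE2 and 16.9, 15.7 and 21.2 FPKM in tt19-8 (1.05 ± 0.18, adjusted p = 0.00804). SDI2, a repressor of glucosinolate synthesis under low sulfur, rose by 0.93 ± 0.21 (adjusted p = 0.0195). The sulfate transporter genes SULTR4.2 and SULTR1.2 had -0.85 and -0.82 and the glutathione synthetase gene GSH2 -0.69, all called lower. LSU1, SDI1 and APR3 had 0.91, 0.04 and 0.70 and did not pass. LSU2 held in all 14 alternative fits. APR2 lost its call without OE2 replicate 1 (adjusted p = 0.0515), and SDI2 without OE2 replicate 1 or 3 or tt19-8 replicate 1 or 2 (adjusted p 0.0676 to 0.0954). The number of higher members was 7 without tt19-8 replicate 3 and 1 to 3 without any other library, while the number of lower members was 1 after median-ratio scaling, and 4 without tt19-8 replicate 3 and 0 or 1 without any other library.

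Cold-regulated and dehydrin genes, whose hydrophilic products protect cells when water is short, had 4 of 11 higher and none lower. All 11 had a log2 change above 0, with a median of 0.78. The count and the median include XERO1, which passed the filter through OE2 alone. The other 3 called genes reached 1 FPKM in tt19-8. LTI30 (AT3G50970), a dehydrin, measured 59.4, 31.7 and 43.6 FPKM in OE2 and 4.51, 3.95 and 4.18 FPKM in tt19-8. Every OE2 library stood far above every tt19-8 library, and the log2 change was 3.09 ± 0.23 (limma, adjusted p = 9.85e-05). OE1, at 4.60, 4.71 and 5.37 FPKM, was near tt19-8. RD29A measured 36.3, 27.3 and 32.7 FPKM in OE2 and 18.8, 12.5 and 5.94 FPKM in tt19-8 (1.42 ± 0.32, adjusted p = 0.0213). The dehydrin gene COR47 measured 52.4, 40.5 and 46.0 FPKM in OE2 and 26.5, 16.4 and 18.4 FPKM in tt19-8 (1.16 ± 0.21, adjusted p = 0.00914). XERO1, the gene next to LTI30, was under 1 FPKM in every tt19-8 library, so no test is given for it. RAB18 (1.601), KIN1 (0.82), COR6.6 (0.70), COR15B (0.46), COR15A (0.24), ERD10 (0.11) and RD29B (0.11) did not pass, and CBF1, CBF2 and CBF3, activators of these genes, were below the filter. LTI30 held in all 14 alternative fits. COR47 lost its call without OE2 replicate 1 or tt19-8 replicate 2 (adjusted p = 0.055 and 0.0502), and RD29A without OE2 replicate 1 or 3 or tt19-8 replicate 2 (adjusted p 0.0776 to 0.0872). The call for XERO1 also ended without tt19-8 replicate 1 or 2.

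The windows of 250 bases before the gene starts of LTI30, RD29A and COR47 are shown for CCGAC on either strand, the core of the dehydration-responsive element that CBF proteins bind, here in capitals. LTI30 (chr3:18940393-18940642, forward strand) and RD29A (chr5:21240467-21240716, forward strand) each held 3 copies, and COR47 (chr1:7086874-7087123, reverse strand) held none in this window.
LTI30: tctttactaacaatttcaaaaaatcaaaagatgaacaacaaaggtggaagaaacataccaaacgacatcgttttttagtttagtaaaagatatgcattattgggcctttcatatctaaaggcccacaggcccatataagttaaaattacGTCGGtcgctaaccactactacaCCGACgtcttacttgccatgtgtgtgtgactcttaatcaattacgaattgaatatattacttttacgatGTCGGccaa
RD29A: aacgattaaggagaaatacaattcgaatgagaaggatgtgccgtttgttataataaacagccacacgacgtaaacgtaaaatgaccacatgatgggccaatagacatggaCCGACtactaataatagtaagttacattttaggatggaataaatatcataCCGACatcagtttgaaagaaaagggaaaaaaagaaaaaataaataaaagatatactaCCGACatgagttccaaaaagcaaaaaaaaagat
COR47: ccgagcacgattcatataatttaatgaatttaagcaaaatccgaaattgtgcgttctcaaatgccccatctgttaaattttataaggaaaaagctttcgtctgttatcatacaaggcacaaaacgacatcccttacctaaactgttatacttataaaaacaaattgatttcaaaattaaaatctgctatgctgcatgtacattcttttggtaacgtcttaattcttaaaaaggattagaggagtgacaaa
XERO1 held none. CCGAC on either strand stood in 4 of the 11 windows of the tested list and in 12.95% of all 17804 windows. The share was 16.3% in genes higher in OE2 and 11.1% in genes lower in OE2. The G-box CACGTG reads the same on both strands and contains the letters ACGTG of the abscisic acid response element. Its shares in genes higher in OE2, lower in OE2 and all tested were 11.04%, 6.23% and 7.33%. Further motifs were scanned as well. In the same order ACGTG had 27.99%, 22.54% and 23.79%. It stood in 6 of the 11 cold windows and in 1 of the 4 of called genes. The W-box core TTGAC had 45.6%, 45.73% and 44.73%, and the telo box AAACCCTAA 2.497%, 2.308% and 2.106%. The site II element TGGGCC had 21.42%, 15.73% and 16.95%. A higher share in genes higher in OE2 was thus not limited to the motifs shown in the windows. These differences were not tested.

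The wider family of late embryogenesis abundant (LEA) proteins, a list taken after the values were seen, had 8 of 50 tested members higher and 1 lower (median 0.11). The list goes by the annotated product and also takes hydroxyproline-rich glycoproteins of that name. LEA18 measured 9.99, 9.63 and 15.96 FPKM in OE2 and 1.54, 1.47 and 2.07 FPKM in tt19-8 (log2 change 2.23 ± 0.23, limma adjusted p = 0.000406). AT5G44310 and AtLEA4-1 were at 1.26 to 2.18 FPKM in OE2 and at most 0.217 FPKM in tt19-8. They are among 4 of the 8 higher members that passed the filter through OE2 alone. Their transcripts are short, with a median of 1046.5 bases over the list. The number of higher members was 13 without tt19-8 replicate 3, and 2, 3 and 2 without OE2 replicates 1, 2 and 3. Singled out after its values were seen, HB-12, a homeobox gene that abscisic acid and drought induce, measured 11.3, 7.96 and 8.19 FPKM in OE2 and 0, 0.112 and 0 FPKM in tt19-8. In OE1 HB-12 measured 0, 0.181 and 0.267 FPKM. It too passed the filter through OE2 alone, so no test is given for it.

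**Figure D4:**
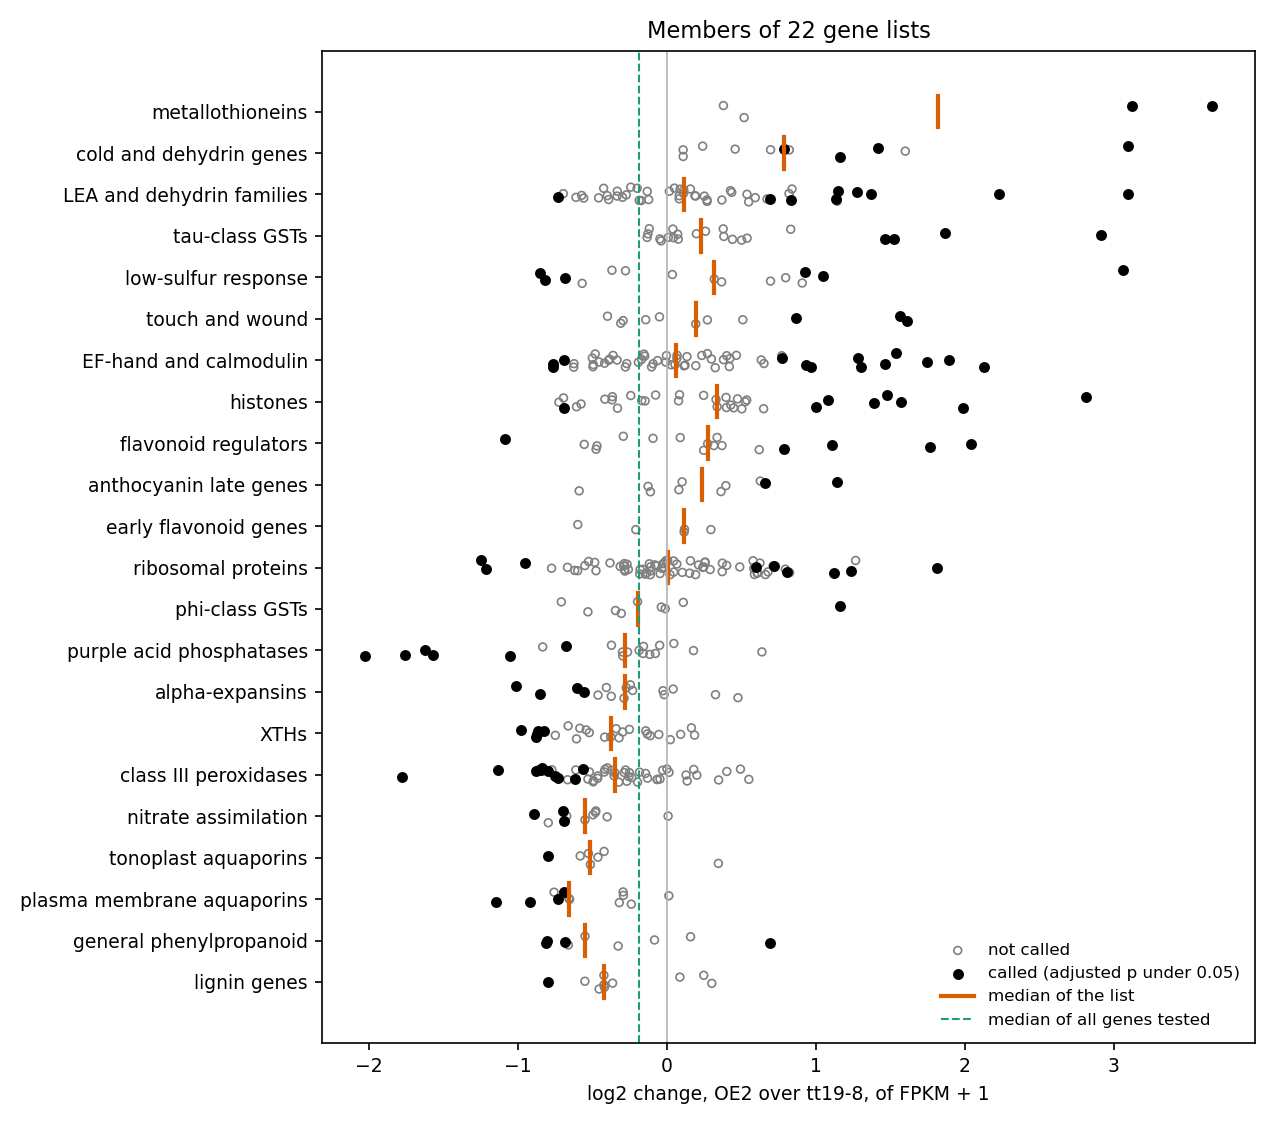
Log2 change of FPKM + 1, OE2 over tt19-8, of each tested member of 22 gene lists; filled points were called, open points were not, orange bars are list medians and the dashed line is the median of all genes tested (-0.19). Metallothioneins and cold genes have the highest medians (1.82 and 0.78), and plasma membrane aquaporins the lowest (-0.66).

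Calcium sensors and touch genes also had members that rose. Of 56 tested genes for EF-hand proteins and calmodulins, a list taken after the values were seen, 10 were higher and 3 lower (median 0.06). CAM6, a calmodulin, measured 16.7, 16.8 and 19.7 FPKM in OE2 and 3.83, 4.001 and 4.25 FPKM in tt19-8 (log2 change 1.90 ± 0.18, limma adjusted p = 0.000267). CAM4 and the EF-hand gene AT2G46600 rose by 1.75 ± 0.24 and 2.13 ± 0.21, while CML23, at 1.50003 to 2.27 FPKM in OE2 and at most 0.0771 FPKM in tt19-8, passed the filter through OE2 alone. Among 11 touch and wound genes 3 rose and none fell. TCH2, a touch-induced calmodulin-like gene, measured 12.2, 10.8 and 7.97 FPKM in OE2 and 3.82, 1.92 and 2.81 FPKM in tt19-8 (1.56 ± 0.24, adjusted p = 0.00416). The zinc finger genes ZAT12 and ZAT6, early regulators of stress responses, were the others called, and ZAT6 rose by 0.86 ± 0.23. TCH2 held in all 14 alternative fits. ZAT12 passed the filter through OE2 alone, so no test is given for it. ZAT6 lost its call without any 1 library other than tt19-8 replicate 3 (adjusted p 0.0553 to 0.1345). Calmodulin genes have near-identical coding sequences, so the split of reads among them is uncertain. The EF-hand list had 14 higher and 11 lower without tt19-8 replicate 3, and 5 to 8 higher and 0 or 1 lower without any other library.

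Histone genes, whose transcripts accumulate in dividing cells, had 7 of 34 members higher and 1 lower (median 0.33, median transcript 842 bases). HIS4, a histone H4 gene, measured 18.3, 18.4 and 18.6 FPKM in OE2 and 0.683, 1.13 and 4.89 FPKM in tt19-8. Replicate 3 of tt19-8 was the nearest to OE2, and the log2 change was 2.81 ± 0.39 (limma, adjusted p = 0.00378). In OE1 HIS4 measured 10.5, 5.86 and 9.70 FPKM. AT3G46320, AT5G59970 and AT3G53730 rose by 1.99, 1.57 and 1.48 (adjusted p = 0.000698, 0.0098 and 0.00914). These genes are near copies, so reads may be split among them. Of 8 B-type cyclin genes 1 fell, near the 10.4% of all genes tested that were lower. It was CYCB3;1, with 10.8, 14.3 and 13.4 FPKM in OE2 and 33.7, 45.8 and 26.7 FPKM in tt19-8 (-1.37 ± 0.22, adjusted p = 0.00519). In bulk tissue, fewer cells of a kind and less RNA per cell cannot be told apart. The histone count was 3 to 10 higher over the fits that left out 1 library, with the 10 reached without tt19-8 replicate 3.

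Ribosomal protein genes of the families listed had 6 of 73 higher and 3 lower, with a median of 0.00. Over all genes tested 4.28% were higher and 10.4% lower. Of 4 genes of the L35Ae family 2 rose, and AT1G07070 and AT1G74270 had 0.40 and 0.68. AT1G41880 measured 42.6, 38.4 and 47.6 FPKM in OE2 and 11.4, 14.5 and 8.97 FPKM in tt19-8 (log2 change 1.81 ± 0.20), and AT3G55750 rose by 1.23 ± 0.16 (limma, adjusted p = 0.000655 and 0.00191). AT1G15930, of the L7Ae family, measured 353, 272 and 396 FPKM in OE2 and 870, 1049 and 525 FPKM in tt19-8 (-1.22 ± 0.27, adjusted p = 0.0187). After scaling to the same sum, 14 members were higher and 1 lower. Without tt19-8 replicate 3 the counts were 18 and 10, and without any other library 2 to 7 and 0 or 1.

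Of the remaining largest rises, AT5G57785, of unknown function, had the highest log2 change among the genes called. It passed the filter through OE2 alone, so no test is given for it. It measured 13.9, 18.1 and 16.8 FPKM in OE2 and 0.0731, 0.388 and 0.429 FPKM in tt19-8. The OE1 libraries had 0.352, 0.524 and 0.901 FPKM. BGL2, the pathogenesis-related glucanase, measured 13.7, 49.8 and 39.2 FPKM in OE2 and 2.57, 7.43 and 2.85 FPKM in tt19-8 (2.67 ± 0.46, adjusted p = 0.0107), and lost its call without OE2 replicate 3 (adjusted p = 0.0618). DGAT3, a diacylglycerol acyltransferase, measured 37.9, 34.0 and 37.8 FPKM in OE2 and 5.27, 5.92 and 7.82 FPKM in tt19-8 (2.37 ± 0.19, adjusted p = 0.000163). The knottin family gene AT2G43530, DSS1(V), the RALF family gene AT4G14020, the lipid-binding gene AT1G70810 and the ribosomal family gene AT3G60245 rose by 2.73, 2.65, 2.53, 2.31 and 2.28. DGAT3 and these 5 genes held in all 14 alternative fits.

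Among abundant genes, AT4G23670, a lipid-binding MLP family gene, measured 565, 525 and 640 FPKM in OE2 and 157, 141 and 271 FPKM in tt19-8 (1.65 ± 0.25, adjusted p = 0.00443). OEP16-1, a channel of the outer plastid envelope, measured 303, 249 and 328 FPKM in OE2 and 124, 115 and 91.5 FPKM in tt19-8 (1.40 ± 0.20, adjusted p = 0.00303). PSBR, a subunit of photosystem II, was called with libraries that overlapped, at 1054, 520 and 1215 FPKM in OE2 and 323, 255 and 611 FPKM in tt19-8 (1.24 ± 0.37, adjusted p = 0.0494). AGP20, an arabinogalactan protein gene, and DI21, a drought-induced gene, rose by 0.81 ± 0.22 and 0.77 ± 0.21. The calls for PSBR, AGP20 and DI21 ended without OE2 replicate 1 or 3 or tt19-8 replicate 1 or 2, and those for AGP20 and DI21 also without OE2 replicate 2.

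Purple acid phosphatases release phosphate from organic compounds, many of them at the root surface, and share the abbreviation PAP with the MYB genes above. In this list, taken after the values were seen, 6 of 20 fell and none rose (median -0.28). PAP14 measured 9.04, 7.52 and 14.97 FPKM in OE2 and 34.9, 41.3 and 25.6 FPKM in tt19-8 (log2 change -1.63 ± 0.26, limma adjusted p = 0.00512). PAP15 measured 39.4, 44.3 and 37.5 FPKM in OE2 and 88.5, 93.3 and 74.3 FPKM in tt19-8 (-1.06 ± 0.18, adjusted p = 0.0067). PAP23, with 0.465, 0.233 and 2.101 FPKM in OE2 and 6.94, 6.82 and 5.14 FPKM in tt19-8, had the lowest value of the list, -2.03 ± 0.31. PAP5, PAP25 and PAP10 had -1.76, -1.57 and -0.68, all called lower, and PAP17 had 0.64 and did not pass. PAP14, PAP15 and PAP23 held in all 14 alternative fits, and 5 members were lower and 1 higher after either scaling. PAP5 lost its call without OE2 replicate 1 or tt19-8 replicate 2 (adjusted p = 0.0522 and 0.0595). PAP25 lost its call without OE2 replicate 1 or tt19-8 replicate 1 or 2 (adjusted p 0.0509 to 0.0666). Both also lost it without the filter on low values. The number of lower members was 7 without tt19-8 replicate 3 and 3 to 5 without any other library. In OE1, PAP14 measured 9.44, 7.78 and 15.2 FPKM.

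Of 51 class III peroxidase genes, whose secreted products cross-link or loosen the wall, 10 fell and none rose (median -0.35). AT5G64120 measured 59.8, 62.2 and 93.9 FPKM in OE2 and 186, 371 and 213 FPKM in tt19-8 (log2 change -1.78 ± 0.27, limma adjusted p = 0.00475), and held in all 14 alternative fits. AT1G30870, AT5G66390 and PER64 had -1.13, -0.80 and -0.75. Of 25 XTH genes, which cut and rejoin xyloglucan, 5 fell, among them XTH14 with 4.67, 4.80 and 6.22 FPKM in OE2 and 14.6, 11.4 and 8.46 FPKM in tt19-8 (-0.98 ± 0.22, adjusted p = 0.0194). Of 16 alpha-expansin genes, which loosen walls, 4 fell, with EXPA16, EXPA7, EXPA13 and EXPA9 at -1.02, -0.85, -0.61 and -0.56. None of the 7 extensin genes tested was called, and none had an unadjusted p under 0.05. After median-ratio scaling the lower members were 3 peroxidases, 2 XTH genes and 2 expansins, and 1 peroxidase and 1 expansin were higher. Without tt19-8 replicate 3 they were 18, 9 and 4, and without any 1 other library 1 peroxidase, 0 to 2 XTH genes and no expansin.

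Aquaporins of the plasma membrane, which carry water into and out of cells, had 4 of 12 members lower and none higher (median -0.66). PIP2B measured 62.9, 61.9 and 71.8 FPKM in OE2 and 147, 182 and 117 FPKM in tt19-8 (log2 change -1.15 ± 0.20, limma adjusted p = 0.00853). PIP1;4 measured 378, 310 and 421 FPKM in OE2 and 798, 872 and 481 FPKM in tt19-8 (-0.92 ± 0.25, adjusted p = 0.0358). PIP2;4 and PIP3 had -0.73 and -0.69. In OE1, PIP2B measured 81.4, 82.2 and 95.4 FPKM, between the other groups. Of 7 tonoplast aquaporin genes 1 fell, TIP4;1 (-0.80 ± 0.23, adjusted p = 0.0434), where 10.4% of all genes tested were lower. After median-ratio scaling PIP2B alone was lower among the plasma membrane genes and no tonoplast gene was. The plasma membrane count was 8 without tt19-8 replicate 3 and 0 or 1 without any other library.

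Nitrate assimilation genes had 3 of 11 members lower, and 10 of the 11 had a log2 change below 0 (median -0.55, median transcript 2439 bases). NIR1, nitrite reductase, measured 182, 195 and 157 FPKM in OE2 and 349, 389 and 264 FPKM in tt19-8 (log2 change -0.89 ± 0.21, limma adjusted p = 0.0218). GLT1, a glutamate synthase, measured 161, 154 and 178 FPKM in OE2 and 253, 288 and 261 FPKM in tt19-8 (-0.70 ± 0.18, adjusted p = 0.0292). G6PD3, a plastid source of reducing power, had -0.69 ± 0.19. NIA2, the main nitrate reductase gene, had -0.80 and did not pass, and the transporter genes NRT1.1 and NRT2.1 had -0.48 and -0.50. None was called after median-ratio scaling, 6 were without tt19-8 replicate 3, and 0 or 1 without any other library.

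The 6 most abundant genes that fell had mean OE2 levels of 0.6 to 0.7 times those of OE1. Catalase 3 (AT1G20620) measured 4547, 4591 and 4856 FPKM in OE2, 10908, 11583 and 6329 FPKM in tt19-8, beside 6600, 6654 and 7029 FPKM in OE1 (log2 change from tt19-8 -0.99 ± 0.27, limma adjusted p = 0.0353). APX1, the cytosolic ascorbate peroxidase, measured 1379, 1262 and 1806 FPKM in OE2, 3572, 3520 and 2196 FPKM in tt19-8, beside 2216, 2021 and 2903 FPKM in OE1 (-1.04 ± 0.26, adjusted p = 0.0265). ERD6, a sugar transporter gene, UBC10, PBF1, a proteasome subunit gene, and HSC70-1, a chaperone gene, had -0.85, -0.69, -0.91 and -1.07. After median-ratio scaling HSC70-1 was the one of the 6 that stayed called, and it lost its call without OE2 replicate 1 or 3 or tt19-8 replicate 1 or 2. Over all genes lower in OE2, 342 (18.3%) had a mean OE2 level of 0.6 to 0.7 times the mean of OE1, against 1 gene (0.131%) among those higher in OE2 and 723 (4.04%) among all tested. The median ratio of OE2 to OE1 was 0.782 in the genes lower in OE2, 1.98 in those higher and 0.938 in all. The OE2 values that set these classes are also the numerator of the ratio. A lower ratio in the genes lower in OE2 is therefore partly built in, and nothing is drawn from it.

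Of the other largest falls, the seed storage gene CRA1 had the lowest value, -2.82 ± 0.74 (limma, adjusted p = 0.0383), with 10.5, 44.3 and 9.80 FPKM in OE2 and 51.1, 388 and 96.8 FPKM in tt19-8. Its call ended in 8 of the 14 alternative fits. PLA2A, a lipase induced by stress, measured 30.7, 45.4 and 55.0 FPKM in OE2 and 110, 204 and 105 FPKM in tt19-8 (-1.62 ± 0.28, adjusted p = 0.00877). In OE1 it measured 31.8, 47.2 and 56.9 FPKM. GLR2.5, a glutamate receptor channel gene, measured 7.30, 12.3 and 9.28 FPKM in OE2 and 29.8, 33.5 and 26.9 FPKM in tt19-8 (-1.57 ± 0.21, adjusted p = 0.00191). AT5G17340, AT5G37210, AT4G31530, AT2G07667, AT5G63270, AT5G01720, scpl3 and FRS5 had -1.76, -1.72, -1.70, -1.69, -1.61, -1.60, -1.56 and -1.53. Of these 8, AT2G07667, AT5G01720, scpl3 and FRS5 lost their calls without OE2 replicate 1 or 3 or tt19-8 replicate 2, and AT2G07667, scpl3 and FRS5 also without tt19-8 replicate 1.

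Markers of plant parts were read to see whether their mix moved with the groups. Root hair markers had 3 of 5 lower (EXPA7, COBL9 and RSL4, log2 changes -0.85, -0.75 and -0.79), and 0 or 1 after either scaling. Their summed level was 160 to 438 FPKM in OE2 and 152 to 632 FPKM in tt19-8, most of it from PRP3. In the shoot meristem list STM, which keeps the meristem undifferentiated, measured 5.73, 5.72 and 7.26 FPKM in OE2 and 15.95, 19.1 and 10.3 FPKM in tt19-8 (-1.12 ± 0.23, limma adjusted p = 0.0147). STM lost its call without OE2 replicate 1 or tt19-8 replicate 1 or 2 (adjusted p 0.0553 to 0.0717). CLV3 and WUS were below 0.3 FPKM in all 6 libraries. Among guard cell and trichome markers GL2 fell (-0.88), 1 of 5. The 4 leaf markers summed to 19440 to 27767 FPKM in OE2 and 27455 to 32081 FPKM in tt19-8, and none was called by limma, with 1 at an unadjusted p under 0.05. Root stele markers summed to 197 to 276 FPKM in OE2 and 201 to 280 FPKM in tt19-8, with none of 3 called and 1 at an unadjusted p under 0.05. The 4 flower markers were under 0.6 FPKM, AP1 at 0 in all 6 libraries, and none was tested. The pollen markers VGD1 and AT5G45880 were at or below 0.035 FPKM, and the 1 tested, AGP6, was not called. The part of such markers in the results above was not tested.

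In the lists left, called members were few, where 4.28% of all genes tested were higher and 10.4% lower. Of 16 proteasome genes 3 fell (RPT3, RPT4A and RPT5B, -0.78, -0.74 and -0.74), and of 10 starch and sugar genes 2 fell (SUC2, the phloem sucrose loader, at -0.83, and DIN10 at -0.80). The gibberellin synthesis genes GA20OX2 and GA3OX1 had -0.82 and -0.73, 2 of 9 called, and the brassinosteroid gene CPD had -0.92, 1 of 7. Among 26 SAUR genes 2 were called higher (AT1G75580, 0.81, and SAUR23) and 1 fell. LHCB2.3, an antenna protein of photosystem II, rose by 1.34 ± 0.25, 1 of 13. LHCB2.3 lost its call without OE2 replicate 1 or 3 or tt19-8 replicate 2 (adjusted p 0.0511 to 0.0641), and CPD without OE2 replicate 1 or 3 or tt19-8 replicate 1 or 2 (adjusted p 0.0518 to 0.0722). SUC2, DIN10, GA20OX2, GA3OX1, AT1G75580, RPT3, RPT4A and RPT5B each lost theirs without any 1 library other than tt19-8 replicate 3. SAUR23 passed the filter through OE2 alone, so no test is given for it. By limma, none of the 14 Aux/IAA, 4 GH3, 7 cytokinin response, 2 heat shock or 6 reference genes tested was called. At an unadjusted p under 0.05 there were 1 Aux/IAA and 2 cytokinin genes lower, and 1 reference gene higher and 2 lower. Chloroplast-encoded genes had 3 of 54 higher (5.56%) and 2 lower (3.70%), with a median of -0.13. Mitochondrial ones had 0 of 30 higher and 4 lower (13.3%), with a median of -0.48. After median-ratio scaling the medians of the Aux/IAA, GH3, gibberellin, heat shock, detoxification and proteasome lists turned from negative to positive, and the lower calls in the proteasome and gibberellin lists ended.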

How the data were processed

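RNA-seq of 9 libraries in 3 groups was deposited as FPKM per gene. Per the submitters' processing notes HISAT 0.1.6, edgeR and TAIR10 were used, with no roles given. The deposited FPKM values give no depth for OE2, so precision rests on the spread of 3 libraries per group.

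The 6 OE2 and tt19-8 libraries were fitted with limma 3.58.1 (R 4.3.3; eBayes with trend and robust) on log2(FPKM + 1), keeping genes that reached 1 FPKM in 3 libraries or more. The Benjamini-Hochberg adjusted p threshold was 0.05. The pseudocount of 1 understates changes of low genes. Errors after ± are standard errors of log2 changes. The fit was also run on simulated data with known answers. It called 48 of 100 genes changed by a log2 value of 1 and 86 of 100 changed by 2, with 4 false calls. The simulated noise was independent between genes and libraries. It held no length trend, no difference in summed FPKM, no outlying tt19-8 replicate 3 and no tie to OE1. The 4 false calls therefore do not measure how many calls in the real libraries are false. The changed genes were drawn from those with higher levels. A gene not called here may therefore still differ.

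Genes named were the 15 largest rises and falls with groups apart and a mean of at least 5 FPKM, the 6 most abundant calls each way, up to 4 called members per list, and all members of 4 lists. Other genes named were chosen after their values were seen. The comparison and lists were chosen with earlier results of these data known. Alternatives were 14 refits, among them other scalings, pseudocount 0.1, filters and each library left out. Of the gene IDs, 32835 matched RefSeq's TAIR10.1 annotation, used for names, lengths and promoters.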

Additional observations from a re-analysis of the deposited data

Results flagged for a closer look

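TT19 did not pass the filter on low values, yet it had a signal in OE2 above that in the tt19-8 mutant. The OE2 libraries averaged 0.805 ± 0.113 FPKM and the tt19-8 libraries 0.0509 ± 0.0571 FPKM (SD, n = 3 each). The OE1 libraries measured 0, 0.0769 and 0.0712 FPKM. The difference in TT19 was not tested. Genes at 0 were fewer in every OE2 library (9687 to 9988) than in the tt19-8 and OE1 libraries (11082 to 11697).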

How the results depend on the processing

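After median-ratio scaling 1688 genes were called (636 lower) where the median log2 change of all genes tested was -0.0210. After scaling to the same sum 1620 were called (1287 higher, 333 lower) with a median of 0.0403. Without a filter on low values 1019 were called (457 lower) with a median of -0.0615, and with at least 5 FPKM 431 genes were higher and 2143 lower. Leaving out 1 library gave 239 to 6095 calls, 144 to 1568 higher and 81 to 4527 lower, the highest each time without tt19-8 replicate 3. None of the 131 called genes taken by the naming rule above changed sign under any alternative that tested them. Called genes named outside that rule, such as SULTR1.2, GSH2 and PAP10, were not part of that check. Lower calls outnumbered higher calls as reported, but not after either scaling or without the filter (562 higher and 457 lower). Nor did they without OE2 replicate 1 (158 higher and 81 lower) or 3 (144 and 131). The same held without tt19-8 replicate 1 (362 higher and 280 lower) or 2 (304 and 99). After median-ratio scaling 6 list medians turned positive. Replicate numbers did not pair the OE2 libraries with the tt19-8 libraries, with correlations of -0.0327, 0.0278 and 0.0128 for the same-numbered pairs. This leaves aside the tie of same-numbered OE2 and OE1 libraries given above. With the replicate number as a block 2553 genes were called. The cause of these shifts was not tested.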

Other observations

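SESA5, EM1 and PHT1;1 were chosen after their values were seen. SESA5, a seed storage albumin gene, measured 5.29, 9.79 and 5.73 FPKM in OE2 and 0.0929, 0.740 and 0 FPKM in tt19-8, and was at 0 in all 3 OE1 libraries. SESA5 passed the filter through OE2 alone. EM1, an embryo LEA gene, measured 6.68, 4.55 and 3.71 FPKM in OE2 and 1.00, 0.576 and 0.440 FPKM in tt19-8. PHT1;1, a phosphate importer gene, averaged 16.7 FPKM in OE2 and 47.9 FPKM in tt19-8 over 3 libraries each (log2 change -1.45 ± 0.20, standard error).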
